A study of Mus musculus with 9 samples.

Results

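The Wnt ligands described here are 10 genes measured in mouse brain, chosen by name: Wnt10b, Wnt3, Wnt10a, Wnt2, Wnt7a, Wnt7b, Wnt9a, Wnt4, Wnt5a and Wnt5b. They are 10 of 21853 genes and 10 of the 19 Wnt ligand genes in the files. The study sequenced poly(A) RNA from 3 groups of 3 libraries. HD-WNT5B libraries come from N171-82Q mice given pAAV-GFAP(pro)-WNT5B-P2A-mCherry, a virus that carries WNT5B and the red fluorescent protein mCherry. HD-Control libraries come from N171-82Q mice given pAAV-GFAP(pro)-Control-mCherry, and WT-Control libraries come from wild-type mice given that control virus. Every group thus received an mCherry virus with the GFAP promoter, which is active mainly in astrocytes. N171-82Q mice model Huntington's disease (HD) through a transgene for an N-terminal fragment of mutant human huntingtin under a prion protein promoter, so the animals keep both of their own huntingtin genes. Injection into the striatum is stated in the series text, while the labels name brain as the tissue without a region and leave out the animals' age, sex and number per library. Genes that mark striatal projection neurons were high in all 9 libraries, with summed values of 360200 to 373300 in HD-WNT5B, 453000 to 457600 in HD-Control and 515200 to 516000 in WT-Control libraries.

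Wnt ligands are secreted, lipid-modified glycoproteins that act over short distances. Porcn attaches the lipid, Wls carries the ligand to the cell surface, and Frizzled receptors bind it with the help of co-receptors. Some ligands act mainly by stabilizing β-catenin with Lrp5 or Lrp6 (the canonical branch, typified by Wnt3 and Wnt10b), and others act mainly through Ror receptors, calcium and cell polarity (the non-canonical branch, typified by Wnt5a and Wnt5b). In the brain Wnt7a and Wnt7b are known for guiding blood vessel growth and the blood-brain barrier, together with the co-receptors Adgra2 and Reck.

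All levels are the deposited normalised read counts, not divided by gene length unless a sentence says so. Dividing by the value of 1 read gave 37.3 to 52.1 M reads in HD-WNT5B, 69.8 to 90.6 M in HD-Control and 67.8 to 77.8 M in WT-Control libraries. The HD-WNT5B libraries stood apart: 14291 to 14588 genes were above 0 in them, against 17223 to 17349 in HD-Control and 17027 to 17132 in WT-Control libraries. For genes averaging 100 or more, replicate variance came to 37.5 to 39.1 times the counting variance in HD-WNT5B, 1.74 to 2.11 times in HD-Control and 1.72 to 3.22 times in WT-Control libraries. The WNT5B virus cannot be told apart from anything else that differed between these 3 libraries and the controls. Nothing in the labels ties each library to an animal of its own, so p-values measure only the spread between these libraries, which may be technical.

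Wnt5b, the mouse gene that corresponds to the viral cargo, was read first as a check of the labels. It measured 184, 22.5 and 212 in HD-WNT5B libraries 1, 2 and 3, against 63.8, 44.2 and 49.3 in HD-Control and 74.6, 63.8 and 57.7 in WT-Control libraries. In HD-WNT5B libraries 1 and 3 it lay above all 6 control libraries, and in the library labelled HD-WNT5B replicate 2 it lay below all of them. That library held 14 Wnt5b reads, against 103 and 99 in the other two. Over all 3 the mean was 139.67 ± 102 in HD-WNT5B and 52.4 ± 10.1 in HD-Control libraries (SD, n = 3 each), and the log2 fold change of 0.88 (SE 0.73) did not pass the test (limma, Benjamini-Hochberg adjusted p = 0.298). Without the library labelled HD-WNT5B replicate 2 it was 1.87 (SE 0.21, limma adjusted p = 1.1e-04). That library held the lowest Wnt5b value of the group, so this p-value is descriptive only. The SD of the Wnt5b log2 values in HD-WNT5B libraries was 1.72, against a median of 0.79 over 1201 genes within 1.5-fold of its level in that group. The labels give neither the species nor the sequence form of the WNT5B cargo, so it is not known whether viral transcripts count toward mouse Wnt5b.

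In HD-Control against WT-Control brains the ligands divided: Wnt10b, Wnt3 and Wnt5a were higher, and Wnt4, Wnt9a, Wnt7b and Wnt2 were lower. Both groups carried the control virus, so this comparison asks how the HD transgene goes with ligand expression. The 7 calls are limma tests over 15411 genes at adjusted p < 0.05, at which 45.1 percent of all genes were called, 24.5 percent higher and 20.7 percent lower. Of the calls, 4 were at least 2-fold, against 10.2 percent of all genes. The median log2 fold change of the 10 ligands was -0.61, beside 0.02 over all genes tested. The same 7 were called, in the same directions, under equal totals, trimmed-mean factors and upper-quartile factors.

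Wnt10b, a canonical ligand best known for holding back fat cell formation and promoting bone, had the widest difference of the 10. It measured 2503, 2551 and 2549 in HD-Control libraries, against 122, 133 and 124 in WT-Control libraries. The HD-Control mean was 20.1 times the WT-Control mean, and the groups did not overlap (log2 fold change 4.30, SE 0.12, limma adjusted p = 2.0e-07). Reads behind these values numbered 3140 to 4141 per HD-Control library and 165 to 173 per WT-Control library.

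Wnt3, a canonical ligand that mouse embryos need to form the primitive streak, was higher as well. It had 532, 517 and 492 in HD-Control libraries, against 182, 196 and 179 in WT-Control libraries. The groups did not overlap, and the difference was 1.45 on the log2 scale (SE 0.14, limma adjusted p = 5.7e-05). Wnt5a, the prototype of the non-canonical ligands and a partner of Ror2, had 527, 557 and 509 in HD-Control against 347, 309 and 336 in WT-Control libraries. Its log2 fold change was 0.68 (SE 0.19, limma adjusted p = 0.0199), and the call was lost without any 1 of 5 of the 6 control libraries (adjusted p 0.0532 to 0.073). An antisense gene covers 4.58 percent of the Wnt5a exon bases, and the library kit does not keep strand, so reads there cannot be assigned.

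Among the ligands that were lower, Wnt4 directs kidney tubule and female reproductive tract development. It had 123, 165 and 116 in HD-Control libraries, against 370, 389 and 381 in WT-Control libraries (log2 fold change -1.49, SE 0.17, limma adjusted p = 1.4e-04). Wnt9a, known from joint formation, had 84.5, 70.1 and 79.4 in HD-Control against 304, 279 and 258 in WT-Control libraries. Neither gene's groups overlapped. For Wnt9a the log2 fold change was -1.81 (SE 0.56, limma adjusted p = 0.0287), and leaving out any 1 of the 6 control libraries gave adjusted p 0.0682 to 0.0849, while a fit with a weight per group gave 1.8e-10.

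Wnt7b had 575, 570 and 574 in HD-Control libraries, against 1133, 1200.1 and 1038 in WT-Control libraries, which puts HD-Control at 0.51 of the WT-Control mean (log2 fold change -0.96, SE 0.09, limma adjusted p = 4.1e-05). An antisense gene covers 6.61 percent of its exon bases. Wnt2, a ligand of lung and placental vessel development, had 340.4, 311 and 342 in HD-Control libraries, against 528, 542 and 536 in WT-Control libraries (log2 fold change -0.69, SE 0.17, limma adjusted p = 0.011). Both genes were lower in every HD-Control library than in any WT-Control library.

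Wnt7a, Wnt10a and Wnt5b did not pass the test. Wnt7a, the close relative of Wnt7b, had 459, 449.8 and 411 in HD-Control against 636, 623 and 655 in WT-Control libraries (log2 fold change -0.54, SE 0.27, limma adjusted p = 0.139). Wnt10a, a ligand of teeth and other ectodermal organs, had 56.6, 49.4 and 62.2 in HD-Control against 111, 124 and 120 in WT-Control libraries (log2 fold change -1.04, SE 0.55, limma adjusted p = 0.165). For both genes the groups did not overlap, and the test used a spread shared with the scattered HD-WNT5B libraries. A weight per group gave limma adjusted p = 3.9e-07 for Wnt7a and 1.2e-06 for Wnt10a, in a fit that called 82.9 percent of all genes, and both were called with the 2 groups alone, as 83.8 percent of all genes were. Wnt5b overlapped between the 2 groups (log2 fold change -0.31, SE 0.73, limma adjusted p = 0.775), and stayed uncalled with a weight per group (0.092). In all, 9 of the 10 ligands did not overlap between HD-Control and WT-Control libraries, where 84.0 percent of all tested genes did not.

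**Figure D1:**
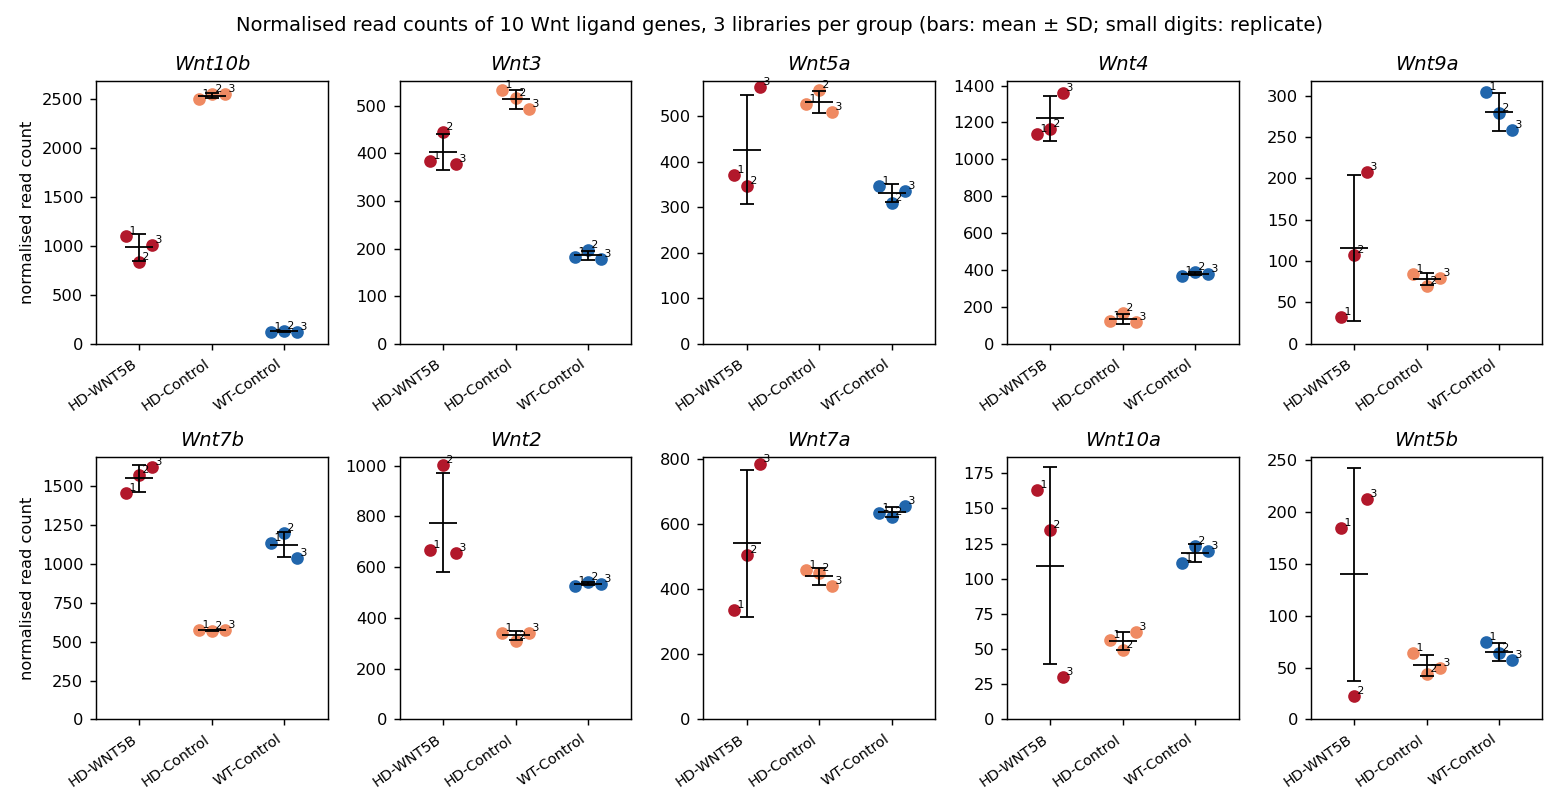
Normalised read count (vertical axes, starting at 0) of each ligand in the 9 libraries, with HD-WNT5B left, HD-Control in the middle and WT-Control right; points are libraries, and bars are the mean ± SD. Wnt10b sits between 834 and 1105 in HD-WNT5B, between 2503 and 2551 in HD-Control and between 122 and 133 in WT-Control libraries, while Wnt5b, Wnt9a and Wnt10a spread more widely in HD-WNT5B libraries than in either control group.

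Promoter sequences are shown for Wnt10b and Wnt3, the 2 ligands with the greatest rises in HD-Control against WT-Control, and for Wnt9a and Wnt4, the 2 with the greatest falls. Each runs from 250 bases before to 50 bases after the RefSeq start (GRCm38.p6), 5′ to 3′ on the gene's strand, with CpG dinucleotides in capitals. They lie at chr15:98778101-98778400 on the minus strand for Wnt10b, chr11:103773925-103774224 on the plus strand for Wnt3, chr11:59306680-59306979 on the plus strand for Wnt9a and chr4:137277385-137277684 on the plus strand for Wnt4.
Wnt10b: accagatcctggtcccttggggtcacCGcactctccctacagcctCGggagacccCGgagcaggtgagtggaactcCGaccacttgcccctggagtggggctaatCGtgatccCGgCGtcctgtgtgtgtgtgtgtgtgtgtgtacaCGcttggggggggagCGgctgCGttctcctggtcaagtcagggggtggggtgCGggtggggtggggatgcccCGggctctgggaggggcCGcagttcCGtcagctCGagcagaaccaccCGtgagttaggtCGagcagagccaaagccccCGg
Wnt3: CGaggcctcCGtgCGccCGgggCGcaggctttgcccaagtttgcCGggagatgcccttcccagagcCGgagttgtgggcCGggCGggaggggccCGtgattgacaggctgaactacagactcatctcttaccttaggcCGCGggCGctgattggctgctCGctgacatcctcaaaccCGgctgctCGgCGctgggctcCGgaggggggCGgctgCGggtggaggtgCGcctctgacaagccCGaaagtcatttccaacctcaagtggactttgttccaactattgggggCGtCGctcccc
Wnt9a: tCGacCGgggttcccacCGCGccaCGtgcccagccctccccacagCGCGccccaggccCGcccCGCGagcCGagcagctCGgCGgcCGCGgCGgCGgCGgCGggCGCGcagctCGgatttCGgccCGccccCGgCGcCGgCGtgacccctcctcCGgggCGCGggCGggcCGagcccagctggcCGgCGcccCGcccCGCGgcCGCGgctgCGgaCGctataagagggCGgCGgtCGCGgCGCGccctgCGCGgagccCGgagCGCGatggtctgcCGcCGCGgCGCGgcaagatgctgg
Wnt4: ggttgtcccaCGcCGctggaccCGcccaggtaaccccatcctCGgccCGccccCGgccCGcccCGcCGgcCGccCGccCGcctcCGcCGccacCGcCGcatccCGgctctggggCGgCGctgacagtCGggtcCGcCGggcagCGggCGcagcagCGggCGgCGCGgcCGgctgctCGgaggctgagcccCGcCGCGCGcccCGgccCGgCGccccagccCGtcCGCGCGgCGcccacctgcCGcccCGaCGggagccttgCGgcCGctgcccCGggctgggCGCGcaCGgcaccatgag

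The windows differ in base composition. Wnt10b holds 18 CpG dinucleotides and Wnt3 24, whereas Wnt9a holds 58 and Wnt4 51. The median over 32851 RefSeq windows of the same length is 7. GC content is 66.3 percent for Wnt10b, 65.7 for Wnt3, 83.3 for Wnt9a and 84.3 for Wnt4, beside a median of 52.7 percent. RefSeq windows were found for 7 of the 10 ligands, with 27 CpG dinucleotides for Wnt2, 42 for Wnt7a and 47, 4 and 7 for the 3 starts of Wnt5b. Wnt5a, Wnt7b and Wnt10a had no entry. The motifs searched on both strands, allowing no mismatch, were CTTTGAT, bound by TCF and LEF factors, GGAAAA, the NFAT core, and the general promoter elements TATAAA and CCAAT; none overlaps another. The last of them, CCAAT, occurs at 2 places in the Wnt3 window and 1 in that of Wnt2 (37.4 percent of all windows hold it), and CTTTGAT occurs once, in the third Wnt5b window (3.7 percent of all windows). GGAAAA, held by 23.4 percent of all windows, and TATAAA, held by 13.6 percent, were in none of the 9 windows. A match is a run of letters and not evidence of binding.

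In HD-WNT5B against HD-Control brains Wnt4, Wnt7b and Wnt2 were higher and Wnt10b and Wnt3 were lower. This comparison asks how the WNT5B virus goes with ligand expression on the HD background, and it shares its HD-Control libraries with the comparison above. limma called 77.5 percent of all genes here, 35.8 percent higher and 41.7 percent lower, so a call by itself says little about a ligand. Of the 10 ligands 5 were called, 4 of them at least 2-fold, against 52.4 percent of all genes. The median log2 fold change of the ligands was 0.42, beside -0.23 over all genes.

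Wnt4 had 1139, 1165 and 1362 in HD-WNT5B libraries, against 123, 165 and 116 in HD-Control libraries. It was 9.07 times the HD-Control mean (log2 fold change 3.17, SE 0.17, limma adjusted p = 2.3e-07). The HD-WNT5B values also exceeded all WT-Control values of Wnt4. Wnt7b had 1454, 1576 and 1621 in HD-WNT5B against 575, 570 and 574 in HD-Control libraries (log2 fold change 1.43, SE 0.09, limma adjusted p = 5.4e-07). Wnt2 had 669, 1001 and 656 in HD-WNT5B against 340.4, 311 and 342 in HD-Control libraries (log2 fold change 1.19, SE 0.17, limma adjusted p = 2.1e-04). Each of these 3 ligands was higher in every HD-WNT5B library than in any HD-Control library, where 78.7 percent of all tested genes did not overlap.

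Wnt10b had 1105, 834 and 1012 in HD-WNT5B libraries, 0.388 of the HD-Control mean of 2535 (log2 fold change -1.37, SE 0.12, limma adjusted p = 7.7e-06). All 3 values were below every HD-Control value. Wnt3 had 385, 445 and 377 in HD-WNT5B against 532, 517 and 492 in HD-Control libraries (log2 fold change -0.35, SE 0.14, limma adjusted p = 0.0409). This call was fragile: the adjusted p was 0.351 with a weight per group (70.1 percent of all genes called), 0.0955 with the 2 groups alone (71.9 percent called), 0.0508 without the filter on low values and 0.0626 to 0.131 when any 1 of the 6 control libraries was left out.

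The other ligands overlapped between HD-WNT5B and HD-Control libraries. Wnt5a had 370, 345 and 564 in HD-WNT5B libraries, against 527, 557 and 509 in HD-Control libraries (log2 fold change -0.35, limma adjusted p = 0.13). Once all libraries had equal totals the Wnt5a value was -0.90 and passed (adjusted p = 0.00303), and it passed without HD-WNT5B replicate 3 (-0.56, adjusted p = 0.00135). Wnt7a had 336, 506 and 785 in HD-WNT5B against 459, 449.8 and 411 in HD-Control libraries. Wnt9a had 32.2, 108 and 208 in HD-WNT5B against 84.5, 70.1 and 79.4 in HD-Control libraries. Wnt10a had 163, 135 and 30.02 in HD-WNT5B against 56.6, 49.4 and 62.2 in HD-Control libraries. Among the 3 HD-WNT5B libraries, replicate 3 was thus the highest for Wnt5a, Wnt7a and Wnt9a and the lowest for Wnt10a. Without it Wnt10a rose by 1.36 (limma adjusted p = 2.4e-04), and without replicate 1 Wnt7a and Wnt9a rose by 0.52 and 0.92 (adjusted p = 0.028 and 0.0162). For each of these ligands, Wnt5a included, the library left out held its highest or lowest value in the group. These p-values are therefore descriptive only. In HD-WNT5B libraries the SD of log2 values was 1.27 for Wnt10a and 1.31 for Wnt9a, against medians of 0.91 and 0.87 over genes of like level. For Wnt10a 13.1 percent of genes of like level had an HD-WNT5B library at 0.

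The scale matters for this comparison. The summed values were 79.9 to 83.8 M in HD-WNT5B libraries, against 55.6 to 55.8 M in HD-Control and 54.6 to 54.7 M in WT-Control libraries. Equal totals for all libraries moved the median log2 fold change of all genes to -0.77 in HD-WNT5B against HD-Control and to -0.80 in HD-WNT5B against WT-Control. In the first of these 32 percent of calls were higher on that scale, against 46.2 percent on the deposited scale. Wnt4, Wnt7b and Wnt2 remained higher on that scale, by 2.61, 0.88 and 0.64, and Wnt10b and Wnt3 remained lower, by 1.93 and 0.90, all past the threshold.

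Set directly against WT-Control, HD-WNT5B brains held 6 called ligands where limma called 77.9 percent of all genes, 35.9 percent higher and 42.1 percent lower. At least 2-fold calls numbered 4, against 53.3 percent of all genes. Wnt10b remained 7.79 times the WT-Control mean in HD-WNT5B libraries (984 ± 138 against 126 ± 6.08, SD, n = 3 each; log2 fold change 2.92, limma adjusted p = 4.9e-08). Wnt4 averaged 1222 ± 122 in HD-WNT5B and 380.1 ± 9.56 in WT-Control libraries (1.67, adjusted p = 1.7e-05), and Wnt3 averaged 402 ± 37.1 and 186 ± 9.37 in these groups (1.10, adjusted p = 7.5e-05). Wnt7b and Wnt2 were higher by 0.46 and 0.50 on the deposited scale (adjusted p = 9.3e-04 and 0.0245), but with equal totals they were -0.12 and -0.074 and uncalled, and with a weight per group, which called 71.1 percent of all genes, the adjusted p was 0.0728 and 0.12. Wnt9a was lower, 116 ± 88.2 in HD-WNT5B and 280.3 ± 22.9 in WT-Control libraries (-1.59, adjusted p = 0.0278), a call lost with the 2 groups alone (0.0669, in a fit that called 72.6 percent of all genes) and without any 1 of the WT-Control libraries (0.0585 to 0.0736). Wnt2 was likewise lost without any 1 of the WT-Control libraries (0.0597 to 0.0672). The other 4 ligands overlapped, where 79.4 percent of all tested genes did not, and were not called: Wnt5b at 0.57, Wnt5a at 0.33, Wnt7a at -0.32 and Wnt10a at -0.41. Wnt5b was called without the library labelled HD-WNT5B replicate 2 (1.56, adjusted p = 3.0e-04), and so was Wnt5a (0.46, adjusted p = 0.0401). That library held the lowest HD-WNT5B value of both ligands, so these p-values are descriptive only. Wnt7a was called lower with equal totals, where 55.5 percent of all genes were lower. It was also called lower without HD-WNT5B replicate 3, which held its highest value in the group, so that call is descriptive only.

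**Figure D2:**
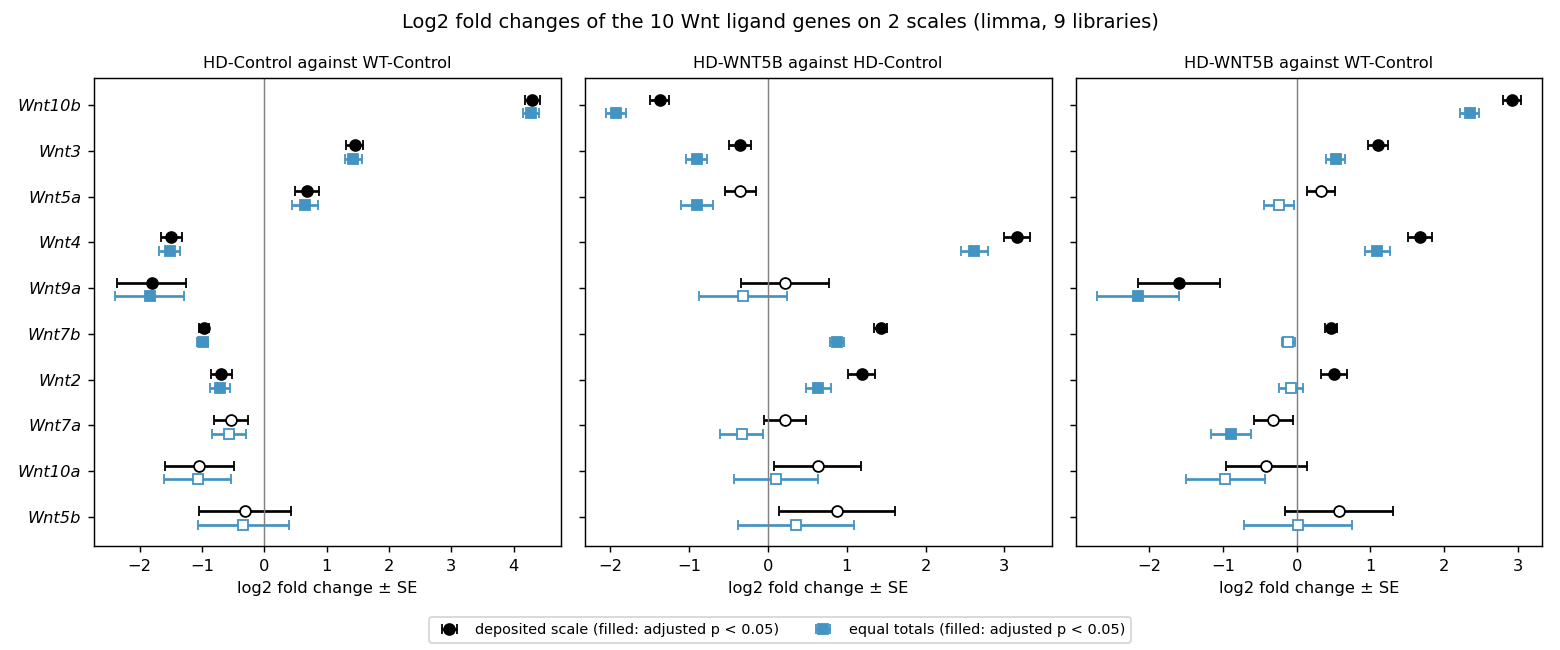
Log2 fold change ± SE (horizontal axis) of each ligand in the 3 comparisons, with circles for the deposited scale and squares for libraries scaled to equal totals; filled symbols have adjusted p < 0.05. The 2 scales nearly coincide for HD-Control against WT-Control, and the squares lie lower in both HD-WNT5B comparisons, where, among called ligands, Wnt7b and Wnt2 against WT-Control cross 0 (0.46 and 0.50 against -0.12 and -0.074).

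Divided by the length of each gene's merged exons, the levels show which ligand messages were the most abundant. In WT-Control libraries Wnt2 (median 238 per kilobase) and Wnt7b (231) led with overlapping ranges, then came Wnt7a (201), which lay apart from both its neighbours in the order. Wnt4 (90.8) and Wnt9a (83.7) overlapped, and Wnt3 (59), Wnt10a (48.5), Wnt5a (42.9), Wnt10b (36.5) and Wnt5b (24) followed with ranges that did not overlap their neighbours. In HD-Control libraries Wnt10b led with 750 per kilobase, Wnt3 followed with 168, and Wnt2 (151) and Wnt7a (142) overlapped. Wnt7b (117), Wnt5a (67.4) and Wnt4 (29.3) lay apart from each other, and Wnt9a (23.9), Wnt10a (22.9) and Wnt5b (18.6) overlapped. In HD-WNT5B libraries Wnt7b (322), Wnt10b (298), Wnt2 (297) and Wnt4 (278) each overlapped the next in order at the top. Wnt4 lay apart from Wnt7a (160), which overlapped Wnt3 (125). Wnt5b (69.4), Wnt10a (54.7), Wnt5a (47.3) and Wnt9a (32.3) overlapped at the bottom. With the longest transcript as the length, Wnt7b moved up. It led HD-WNT5B libraries (463, apart from Wnt10b), came second in HD-Control (169, overlapping Wnt3 at 168) and led WT-Control (333, apart from Wnt2 at 238).

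Wnt10b was the ligand whose share of the total changed most between the groups. It made up 16.8 percent of the summed level per kilobase of the 10 ligands in HD-WNT5B (14.2 to 20.1), 50.3 percent in HD-Control (49.4 to 51.1) and 3.52 percent in WT-Control libraries (3.38 to 3.65). The 3 ranges did not overlap. Wnt2, Wnt7b and Wnt7a together led the WT-Control make-up with 22.5, 21.7 and 19.1 percent, and in HD-Control they held 9.92, 7.9 and 9.36 percent. Wnt4 held 16.8 percent in HD-WNT5B, 2.17 percent in HD-Control and 8.59 percent in WT-Control libraries. The summed level per kilobase was 1729 ± 114 in HD-WNT5B, 1481 ± 11.6 in HD-Control and 1055 ± 21.4 in WT-Control libraries on the deposited scale (SD, n = 3 each). With equal totals the order turned, to 1355 ± 109 in HD-WNT5B, 1703 ± 16.2 in HD-Control and 1236 ± 23.2 in WT-Control libraries. Shares within a library do not depend on the scale of the library.

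**Figure D3:**
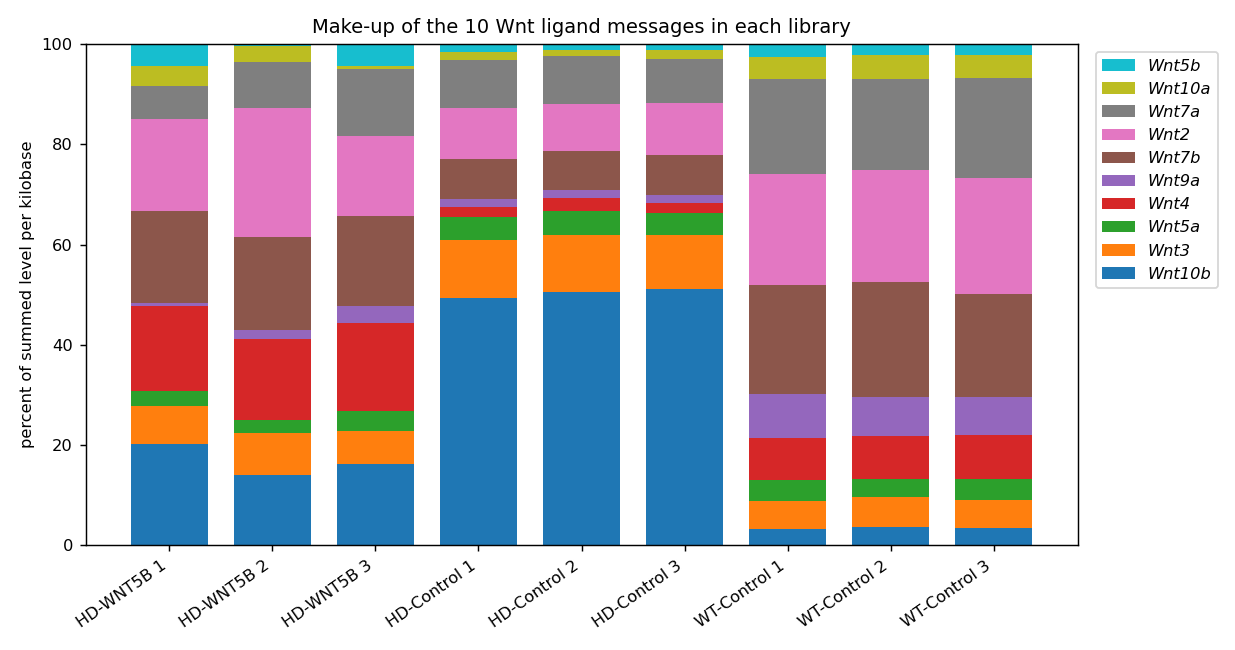
Percent of the summed level per kilobase of the 10 ligands (vertical axis) held by each ligand, stacked, 1 bar per library with HD-WNT5B left, HD-Control in the middle and WT-Control right. The Wnt10b segment at the base takes 14.2 to 20.1 percent of each HD-WNT5B bar, 49.4 to 51.1 percent of each HD-Control bar and 3.38 to 3.65 percent of each WT-Control bar.

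Of the other 9 Wnt ligand genes, 4 passed the filter on low values, and 7 were at 0 in all HD-WNT5B libraries. Of the 4 tested, none was called higher in any comparison by the test with the shared spread. In HD-Control against WT-Control 1 was lower, where 20.7 percent of all genes were. In HD-WNT5B against HD-Control 2 were called lower, Wnt2b and Wnt16, and 2 in HD-WNT5B against WT-Control, where 41.7 and 42.1 percent of all genes were. Wnt8b, a ligand of the developing forebrain, had 100.2, 91.6 and 0 in HD-WNT5B libraries, against 161, 164 and 180.4 in HD-Control and 239, 216 and 206 in WT-Control libraries (not called in any comparison with the shared spread). With a weight per group all 4 were called in HD-Control against WT-Control, Wnt11 higher and Wnt8b, Wnt2b and Wnt16 lower. The same held with the 2 groups alone. Those fits called 82.9 and 83.8 percent of all genes. Wnt2b, a relative of Wnt2, was at 0 in every HD-WNT5B library and had 28.7, 31.7 and 46.8 in HD-Control and 49.97, 50.9 and 60.6 in WT-Control libraries. Taking 3 reads in the shallowest library as the limit of detection (a value of 6.43), Wnt2b was at least 5.55-fold lower in HD-WNT5B than in HD-Control and at least 8.36-fold lower than in WT-Control libraries. That limit covers counting error only. HD-WNT5B libraries also reach 0 for genes well above it, as Wnt8b does, so the true differences may be smaller. Wnt16, known from bone, was at 0 in every HD-WNT5B library and had 3.19, 4.42 and 1.23 in HD-Control and 27.4, 39.6 and 29.2 in WT-Control libraries (log2 fold change -2.58 for HD-Control against WT-Control, limma adjusted p = 2.9e-04). Its HD-Control values lie below the limit of detection in HD-WNT5B libraries, so its call against HD-Control does not show a difference (adjusted p = 0.538 with a weight per group). By the same limit Wnt16 was at least 4.99-fold lower in HD-WNT5B than in WT-Control libraries. Wnt11, a non-canonical ligand, had 75.1, 0 and 10.7 in HD-WNT5B, 27.1, 31 and 43.7 in HD-Control and 11.3, 8.08 and 8.03 in WT-Control libraries. Its HD-Control mean was 3.72 times the WT-Control mean with no overlap, a difference not called with the shared spread (limma adjusted p = 0.233) and called higher with a weight per group (7.7e-06) and with the 2 groups alone (5.5e-06). Wnt1, Wnt3a, Wnt6, Wnt8a and Wnt9b did not pass the filter. In HD-WNT5B libraries 1 read is worth 1.61 to 2.14, against 0.616 to 0.797 in HD-Control and 0.704 to 0.808 in WT-Control libraries, and genes with 1 to 10 reads numbered 194 to 324, 1844 to 1952 and 1778 to 1831 in the 3 groups, so a 0 in HD-WNT5B libraries is not the same evidence of absence.

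Several listed ligands lie in pairs with another Wnt gene on the mm10 assembly, and the partners were barely detected. Wnt10b (chromosome 15, 98770712 to 98778150, minus strand) is 11707 bases from Wnt1, which was at 0 in all HD-WNT5B libraries and had 6.38, 4.42 and 5.54 in HD-Control and 3.52, 1.62 and 2.92 in WT-Control libraries. Its neighbour on the other side, Arf3, a Golgi transport GTPase, was higher in HD-Control than in WT-Control libraries by 0.30 on the log2 scale (limma adjusted p = 0.00984), where Wnt10b was higher by 4.30. Wnt3 (chromosome 11, 103774150 to 103817957, plus strand) is 24329 bases from Wnt9b, whose values were at most 4.42. Nsf, the vesicle fusion ATPase on the other side of Wnt3, was not called in HD-Control against WT-Control (log2 fold change 0.03, adjusted p = 0.633). Wnt9a (chromosome 11, 59306928 to 59333552, plus strand) is 16176 bases from Wnt3a, at most 1.47 in any library. Wnt10a (chromosome 1, 74791516 to 74804179, plus strand) is 6194 bases from Wnt6, which had 2.39, 4.42 and 3.08 in HD-Control against 16.9, 17.8 and 9.49 in WT-Control libraries. Wnt4 lies at chromosome 4, 137277489 to 137299726 (plus strand), and Wnt5a at chromosome 14, 28504750 to 28527448 (plus strand). On chromosome 6, all on the minus strand, are Wnt2 at 17988940 to 18030585, Wnt7a at 91363981 to 91411363 and Wnt5b at 119432531 to 119544347. Wnt7b lies at chromosome 15, 85535437 to 85582473 (minus strand). Adipor2, an adiponectin receptor beside Wnt5b, was higher by 0.89 in HD-Control than in WT-Control libraries (limma adjusted p = 5.2e-04), and Cdc42, a small GTPase beside Wnt4, by 0.19 (adjusted p = 0.00779). No run of 50 transcript bases is shared between these ligands. For Wnt4 4.33 percent of such runs also occur in other genes, for Wnt7b 3.88 percent, all in its antisense gene, and for Wnt5a 3.38 percent.

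The genes whose log2 profiles over the 9 libraries were nearest to each ligand are given as a description. Nearness is the root mean square difference of the centred log2 values. For Wnt10b the nearest were Apold1 at 0.27 and Cebpd at 0.38, where the Wnt10b profile itself departs from its mean by 1.79. Apold1 had 912, 864 and 1139 in HD-WNT5B, 2799, 2750.4 and 2833 in HD-Control and 204, 181 and 173 in WT-Control libraries. For Wnt4 the nearest were Tspan17 at 0.14 and Mrps25 at 0.17, for Wnt3 Zfp777 at 0.08 and Tle3 at 0.09, for Wnt7b Mus81 at 0.08 and Gpr89 at 0.09, and for Wnt2 Colec12 at 0.08 and Cbfa2t3 at 0.09. Wnt5a was nearest to Tdp2 at 0.07 and Robo4 at 0.11, and Wnt7a to Fam83h at 0.11 and Cyb5r1 at 0.14. Wnt10a was nearest to Zfp114 at 0.19 and Irf7 at 0.33, Wnt9a to Hbb-bt, a β-globin, at 0.27 and Zfp759 at 0.33, and Wnt5b to Polg2 at 0.31 and G0s2 at 0.32. Hbb-bt had 30.4, 73.9 and 208 in HD-WNT5B, 61.4, 56 and 65.9 in HD-Control and 320.2, 313 and 320.4 in WT-Control libraries.

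Of 9 genes for the lipidation and secretion of Wnt ligands, 2 were higher, 1 lower and 6 not called in HD-Control against WT-Control, where 45.1 percent of all genes were called. With a weight per group 5 were higher, 3 lower and 1 not called; that fit called 43.1 percent of all genes higher and 39.9 percent lower, to be read beside its counts for each list that follows. Wls, which every secreted Wnt needs to reach the surface, had 1080.3, 987 and 999 in HD-Control against 1866, 1836 and 1972 in WT-Control libraries (log2 fold change -0.89, limma adjusted p = 9.3e-05). In HD-WNT5B against HD-Control 3 were higher, 4 lower and 2 not called, near the 77.5 percent of all genes called. With equal totals 1 was higher, 7 lower and 1 not called, beside 25.7 percent of all genes higher and 54.6 percent lower. On the deposited scale Wls was lower by 0.37 (adjusted p = 0.00495). Vps35, the retromer subunit that recycles Wls, had 1420.2, 1462 and 1061 in HD-WNT5B against 7225, 7259 and 7202 in HD-Control libraries (-2.47, adjusted p = 7.3e-08). Tmed5, a cargo receptor for Wnt export, was higher by 1.58 (adjusted p = 5.9e-07), and Tmed10, of the same family, was lower by 1.60 (adjusted p = 4.3e-08). Porcn was not called in HD-Control against WT-Control (0.19, adjusted p = 0.194) or in HD-WNT5B against HD-Control (0.26, adjusted p = 0.0511).

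Extracellular inhibitors had 0 higher, 4 lower and 11 not called of 15 tested (of 19 listed) in HD-Control against WT-Control, and 5 higher, 5 lower and 5 not called in HD-WNT5B against HD-Control. Over all genes 45.1 percent were called in the first comparison and 77.5 percent in the second. With a weight per group 5 inhibitors were higher in the first (Dkk3, Notum, Sfrp1, Sfrp4 and Apcdd1, limma adjusted p 4.8e-04 to 0.0229), 8 lower and 2 not called. Dkk2, which blocks Lrp5 and Lrp6, had 755, 726 and 251 in HD-WNT5B libraries, 19.9, 42.8 and 32 in HD-Control and 112, 122 and 107 in WT-Control libraries. It was lower by 1.81 in HD-Control against WT-Control (limma adjusted p = 0.011) and higher by 3.97 in HD-WNT5B against HD-Control (adjusted p = 4.3e-05). Dkkl1, a Dkk relative, was lower by 2.34 (adjusted p = 4.3e-04) and higher by 2.64 (adjusted p = 5.9e-05) in these 2 comparisons. Of the Dkk receptors, Kremen2 was lower by 0.98 (adjusted p = 0.00795) in HD-Control against WT-Control and higher by 2.86 (adjusted p = 3.8e-06) in HD-WNT5B against HD-Control. Kremen1 was not called in HD-Control against WT-Control (-0.32) and was lower by 2.35 (adjusted p = 4.3e-07) in HD-WNT5B against HD-Control.

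The list of R-spondins, which strengthen Wnt signals through Lgr receptors, also holds the Lgr receptors, Znrf3 and Rnf43. It had 0 higher, 1 lower and 8 not called of 9 genes in HD-Control against WT-Control, where 45.1 percent of all genes were called. A weight per group gave 1 higher (Rnf43), 7 lower and 1 not called. Rspo2 had 70.2, 84.1 and 72 in HD-Control against 329, 304 and 332 in WT-Control libraries (log2 fold change -2.05, limma adjusted p = 0.00478). In HD-WNT5B against HD-Control 2 of 9 were higher, 4 lower and 3 not called, beside 77.5 percent of all genes called. Rspo1 was higher by 1.56 (adjusted p = 2.7e-04) and Rspo3 by 1.47 (adjusted p = 1.6e-04), whereas Lgr4 had 84.1, 46.6 and 120.1 in HD-WNT5B against 1202, 1176 and 1210 in HD-Control libraries (-3.89, adjusted p = 2.2e-06).

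The receptor side had 3 higher, 3 lower and 12 not called of 18 genes in HD-Control against WT-Control (median -0.10, beside 0.02 over all genes), where 45.1 percent of all genes were called. With a weight per group 8 were higher, Lrp6, Fzd7, Fzd5, Ryk and Ptk7 now among them (limma adjusted p 1.1e-08 to 1.1e-05), 8 lower and 2 not called. In HD-WNT5B against HD-Control 1 was higher, 12 lower and 5 not called, where 41.7 percent of all genes were lower. The median log2 fold change was -2.32, or -1.98 with Ror2, at 0 in all HD-WNT5B libraries, set at its limit of detection, beside -0.23 over all genes. The 1 receptor called higher was Fzd2, a Frizzled, while Fzd8 (0.45) and Ryk (0.30) were above 0 and not called. Fzd2 had 1882, 1343 and 1542 in HD-WNT5B, 342, 315 and 319.5 in HD-Control and 799, 772 and 739 in WT-Control libraries (-1.24, limma adjusted p = 1.1e-04, then 2.26, adjusted p = 4.5e-07). Ror1, a Wnt5a receptor, was higher by 0.49 in HD-Control against WT-Control (adjusted p = 0.0255) and lower by 2.84 in HD-WNT5B against HD-Control (adjusted p = 2.2e-07). Ptk7, a co-receptor of the polarity branch, had 104, 159 and 62.2 in HD-WNT5B against 1312, 1374 and 1341 in HD-Control libraries (-3.69, adjusted p = 3.0e-06). Adgra2, which carries Wnt7a and Wnt7b signals into brain endothelium together with Reck, had 91.2, 124 and 85.8 in HD-WNT5B, 619, 574 and 584 in HD-Control and 916, 909 and 940 in WT-Control libraries (-0.64, adjusted p = 0.0117, then -2.55, adjusted p = 8.1e-07).

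Feedback targets of β-catenin, which report on the canonical branch, had 0 higher, 5 lower and 10 not called of 15 in HD-Control against WT-Control, beside 24.5 percent of all genes higher and 20.7 percent lower. This is the comparison in which Wnt10b and Wnt3 were higher. The absence of higher targets depended on the shared spread: with a weight per group 5 were higher (Notum, Rnf43, Sp8, Sp5 and Apcdd1, limma adjusted p 2.0e-04 to 0.0229), 9 lower and 1 not called. Of these 15, Notum and Apcdd1 are also on the inhibitor list and Znrf3, Rnf43 and Lgr5 on the R-spondin list. The median log2 fold change was -0.31, beside 0.02 over all genes. Axin2, the most general of these targets, had 1095, 1171 and 1140 in HD-Control against 1510, 1507 and 1531 in WT-Control libraries (-0.42, limma adjusted p = 0.0147). Tcf7, a partner of β-catenin on DNA, was lower by 1.30 (adjusted p = 2.1e-04), Ccnd1, a cyclin of cell cycle entry, by 1.93 (adjusted p = 1.2e-04), and Tnfrsf19, a receptor of stem-like cells, by 0.63 (adjusted p = 8.0e-04). HD-WNT5B against HD-Control libraries had 2 targets higher, 5 lower and 8 not called, fewer calls than the 77.5 percent over all genes, with a median of -0.35 beside -0.23 over all genes. That shortfall depended on the scale. With equal totals 2 targets were higher, 9 lower and 4 not called, beside 25.7 percent of all genes higher and 54.6 percent lower. On the deposited scale Axin2 had 354, 385.5 and 294 in HD-WNT5B against 1095, 1171 and 1140 in HD-Control libraries (-1.72, adjusted p = 9.1e-07). Tnfrsf19 was lower by 1.51 (adjusted p = 7.9e-07), Ccnd1 was higher by 1.24 (adjusted p = 5.2e-04), and Tcf7 was not called (0.29, adjusted p = 0.115). Against WT-Control, HD-WNT5B libraries had 1 target higher, 8 lower and 6 not called, beside 35.9 percent of all genes higher and 42.1 percent lower.

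**Figure D4:**
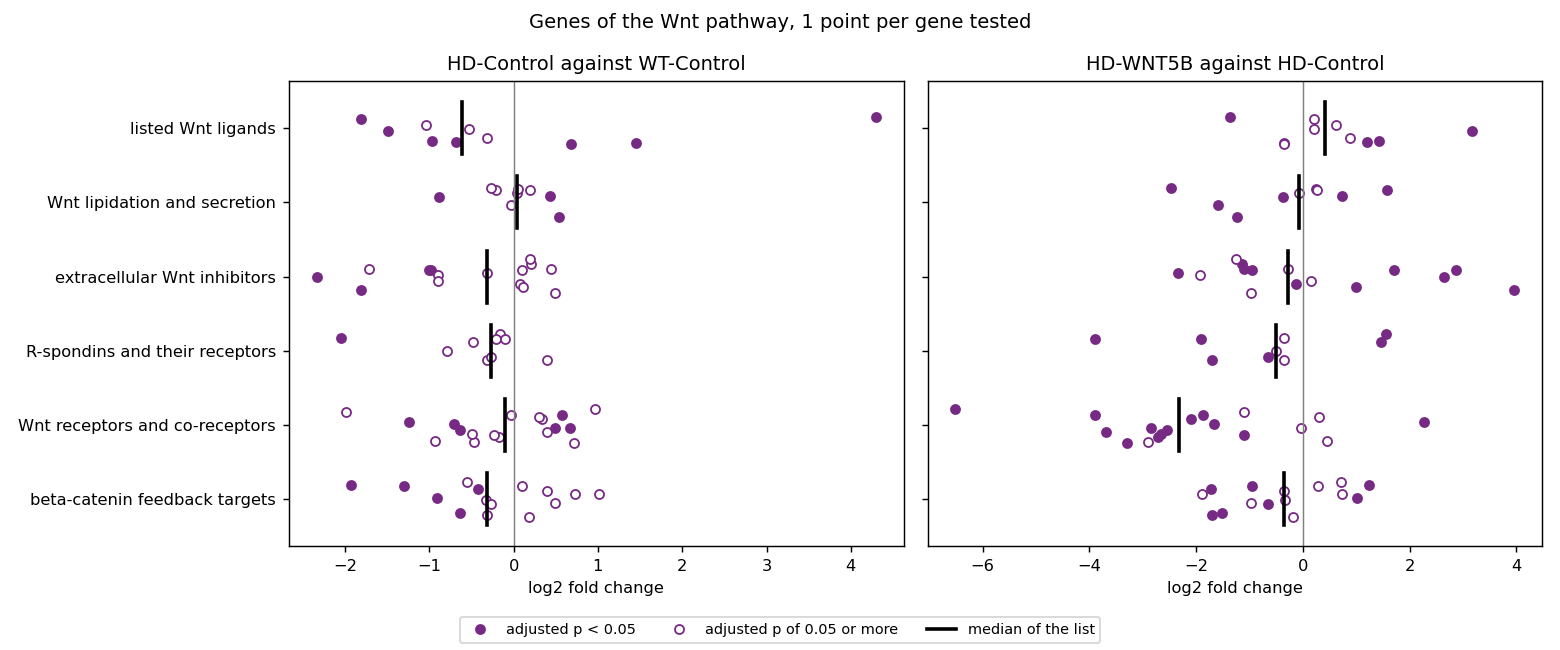
Log2 fold change (horizontal axis) of each tested gene of the ligand list and 5 pathway lists, for HD-Control against WT-Control (left) and HD-WNT5B against HD-Control (right); filled points have adjusted p < 0.05, and bars are list medians. The ligands spread to both sides in each comparison, and the receptor list has its median at -0.10 on the left and -2.32 on the right, where the all-gene median is -0.23.

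Markers of several cell types moved with these differences, and in bulk tissue fewer cells of a type and less RNA per cell cannot be told apart. All marker sums are on the deposited scale and were not scaled to equal totals. On it libraries total 79.9 to 83.8 M in HD-WNT5B, 55.6 to 55.8 M in HD-Control and 54.6 to 54.7 M in WT-Control. A higher HD-WNT5B sum may therefore not hold with equal totals. In HD-Control against WT-Control, where 24.5 percent of all genes were higher and 20.7 percent lower, 8 of 10 cortical excitatory neuron markers were lower, with summed values of 16360 to 16570 in HD-Control and 30720 to 31480 in WT-Control libraries. Microglia and oligodendrocyte markers were lower for 9 of 10 genes each, and endothelial and mural markers for 6 of 10, with sums of 18380 to 18400 in HD-Control and 27510 to 27980 in WT-Control libraries. Of 10 markers of astrocytes, the cells in which the viral promoter is mainly active, 6 were lower and 2 higher (Gfap and Gjb6). Their sums were 200500 to 215300 in HD-WNT5B, 211600 to 213000 in HD-Control and 327300 to 330500 in WT-Control libraries. Without Slc1a2, the glutamate transporter with the highest mean over the libraries (left out here, as Ppp1r1b, Ttr and Cldn5 are for the lists that follow, after the values were seen), they were 167866 to 180421, 100808 to 101244 and 119365 to 120755 in these groups. Of 10 striatal projection neuron markers 7 were lower and 3 higher (Penk, Ppp1r1b and Tac1). Without Ppp1r1b, the highest of them, the sums were 280945 to 286871 in HD-WNT5B, 297337 to 297457 in HD-Control and 412357 to 417116 in WT-Control libraries.

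In HD-WNT5B against HD-Control, where 35.8 percent of all genes were higher and 41.7 percent lower, astrocyte markers had 4 of 10 higher and 4 lower, and cortical excitatory neuron markers 3 higher and 3 lower. Striatal projection neuron markers had 3 of 10 higher and 5 lower. Choroid plexus markers had 4 of 10 higher and 2 lower, with sums of 13190 to 15940 in HD-WNT5B, 1956 to 2068 in HD-Control and 1953 to 2025 in WT-Control libraries. Most of that sum was Ttr, the transthyretin gene, at a mean of 12656 in HD-WNT5B, 679 in HD-Control and 693 in WT-Control libraries. The other 9 choroid plexus markers summed to 1621 to 2316 in HD-WNT5B, 1284 to 1381 in HD-Control and 1264 to 1353 in WT-Control libraries on the deposited scale, and whether they differ with equal totals was not tested. Endothelial and mural markers had 7 of 10 higher and 3 lower (Rgs5, Pdgfrb and Pecam1), with sums of 50400 to 59740 in HD-WNT5B libraries. Without Cldn5, a tight junction gene that was 17.2 times the HD-Control mean, the sums were 23970 to 28846 in HD-WNT5B, 16659 to 16735 in HD-Control and 25832 to 26301 in WT-Control libraries. Microglia markers had 6 higher and 0 lower, and oligodendrocyte markers 7 higher and 3 lower. These counts depended on the scale: with equal totals 25.7 percent of all genes were higher and 54.6 percent lower. On that scale microglia and oligodendrocyte markers each had 5 higher and 4 lower. Astrocyte markers had 4 higher and 6 lower, cortical markers 3 and 7, and striatal markers 2 and 7. Endothelial and mural markers had 5 higher and 3 lower, and choroid plexus markers 3 and 2. Emx1 of the cortical list, Lum of the meningeal list and Hydin of the ependymal list were at 0 in all HD-WNT5B libraries. Hydin did not stand for its list. On the deposited scale ependymal markers had 5 of 10 higher and 1 lower, with sums of 4220 to 5159 in HD-WNT5B and 2216 to 2255 in HD-Control libraries. With equal totals they had 4 higher and 4 lower. Meningeal fibroblast markers had 0 of 10 higher and 3 lower on the deposited scale. The part of these cell types in the ligand differences was not tested.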

How the data were processed

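Poly(A) RNA was sequenced in 9 mouse brain libraries. The authors deposited 1 signal value per gene and library. From the values these are read counts divided by 1 factor per library, since 97.78 to 98.7 percent of values below 200 reads are within 0.05 of a whole number of reads. Per the submitters' processing notes STAR and mm10 were used for alignment; how reads were counted and normalized, and with which versions, is not given in the sources used here. GENCODE M21 matched all 21853 gene identifiers. Values of at least 10 in at least 3 libraries kept 15411 genes. Log2(value + 3) was fitted with limma 3.58.1 in R 4.3.3, a mean per group over 9 libraries, trended moderation and two-sided tests, with Benjamini-Hochberg adjustment over all genes and calls at adjusted p < 0.05. The added 3 shrinks fold changes of low genes. As a check of the code, the fit was run on simulated data in which few genes changed, for HD-Control against WT-Control only. Many genes were called in the real libraries, so that check gives no error rate for them. Alternatives changed scale, constant, filter, spread and libraries. Count models were planned, but the smallest values could not be turned into whole reads, so none was run. Limits of detection cover counting error only.

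Members and lists were chosen with earlier results of these data known. Besides the 10 ligands, genes were named by rule: other Wnt ligands above 0, up to 4 genes per pathway list with the smallest p in HD-Control against WT-Control or HD-WNT5B against HD-Control, the 2 nearest profiles per ligand and annotated neighbours within 50 kb. Porcn, Reck, Ror2, Notum, Apcdd1, Znrf3, Rnf43, Lgr5, Sp5, Sp8, Dkk3, Sfrp1, Sfrp4, Lrp6, Fzd5, Fzd7, Fzd8, Ryk, Emx1, Lum, Hydin and the astrocyte, striatal, choroid plexus and vascular markers were named after their values were seen. Tables and figures used Python 3.11.15, pandas 2.3.3, numpy 2.4.6 and matplotlib 3.10.9.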

Additional observations from a re-analysis of the deposited data

How the results depend on the processing

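Over the 10 ligands and 3 comparisons, 37 of 270 values changed call or direction when a single library was left out, and 19 of 300 under the other alternatives (scale, filter, pseudocount, spread or block). Reversed values of uncalled ligands in HD-WNT5B against HD-Control were those of Wnt7a (-0.33 with equal totals, -0.09 to 0.52 without single libraries) and Wnt9a (-0.32, and -0.37 to 0.92), the lowest without HD-WNT5B replicate 3 and the highest without HD-WNT5B replicate 1. Against WT-Control, equal totals reversed Wnt5a (-0.25), Wnt7b (-0.12) and Wnt2 (-0.074), and leaving out HD-WNT5B replicate 3 reversed Wnt10a (-0.84 to 0.32 without single libraries). The genes called in HD-Control against WT-Control numbered 6957, against 12779 with a weight per group and 12908 with the 2 groups alone. Calls among the other Wnt ligands, summed over the 3 comparisons, numbered 5, against 10 with equal totals, 12 with no filter, 1 with a filter of 50, 9 with a weight per group, 8 with the 2 groups alone and 2 to 9 without single libraries. The number of these ligands tested per comparison also changed. It was 4 in the main fit, 5 with equal totals, 9 with no filter and 1 with a filter of 50, so these counts do not cover the same genes. With longest-transcript lengths Wnt10b held 54 percent of the ligand level in HD-Control and 3.97 percent in WT-Control libraries. The summed ligand level with equal totals and the marker sums without 1 gene were added after seeing the data. The cause of these shifts was not tested. Without single libraries, called ligands numbered 5 to 9 in HD-Control against WT-Control, 4 to 7 in HD-WNT5B against HD-Control and 4 to 8 in HD-WNT5B against WT-Control, and called genes 5421 to 8949, 11063 to 12532 and 11210 to 12621. Where a group is left with 2 libraries the shared spread is assumed to hold for it.

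Correlations gave no sign of pairing by replicate number: those of same-numbered libraries were -0.023 to 0.024, and other numbers reached 0.04. Control replicates differ little beyond counting error, so this check cannot exclude pairing. With a replicate block 7, 4 and 6 ligands were called in the 3 comparisons, the lost call being Wnt3 in HD-WNT5B against HD-Control (limma adjusted p = 0.0765). The planned count tests, with size factors and on recovered reads, were not run because the smallest values do not give whole reads. Wnt10a in HD-WNT5B replicate 3 and Wnt5b in the library labelled HD-WNT5B replicate 2 rest on 14 reads each. Of these libraries, replicate 3 was the shallowest of its group (37.3 M reads) and replicate 2 the deepest (52.1 M reads).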
